A study of Mus musculus with 43 samples.

Results

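Expression of 10 cytokine genes was followed in CTLL-2 cells, cytotoxic T cells of the mouse kept as a line that lives and divides only when interleukin 2 (IL-2) is supplied. The genes were Ifng, Il23a, Lta, Ltb, Tnf, Osm, Lif, Csf2, Il16 and Tgfb1. They were chosen by name, with earlier results of these data known. Every probe set that the annotation of the array assigns to one of these symbols was taken. This gave 15 probe sets for 10 of the 18193 genes that the array reports with a single gene name. All 15 passed the filter on low signals, and for each gene the probe set of highest mean signal is described. Lif and Tgfb1 each have 2 probe sets, Il16 has 4 and the other genes have 1.

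The line comes from a C57BL/6 mouse, and all groups are cultures of this one line on mouse 430 2.0 arrays. Cells were washed free of IL-2 and kept without it for 14 h (starved 0 h, 5 arrays). Recombinant human IL-2 was given next, at 100 U/mL. It was followed with 3 arrays each at 0.5, 1, 2, 6, 8, 10, 12, 16 and 24 h and with 4 arrays at 4 h. Further cells stayed without IL-2 beyond the 14 h, for another 4 h (no IL-2 4 h, 4 arrays) or 8 h (no IL-2 8 h, 3 arrays). All groups therefore share the 14 h of starvation, and none measures cells growing steadily in IL-2. Replicates of the IL-2 times are biological ones in the study's design text, which leaves those of the longer starved groups undescribed.

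IL-2 binds a receptor on activated T cells that signals through the Janus kinases to the transcription factor STAT5, and through the MAP kinase and PI3 kinase pathways. Cytotoxic T cells are known for secreting interferon gamma (Ifng), tumour necrosis factor (Tnf) and lymphotoxin alpha (Lta), which act on macrophages, infected cells and lymphoid stroma. Cytokine messenger RNAs are often short-lived, so their levels can move quickly after a signal.

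The 43 arrays had all been scaled by the authors to the same 2% trimmed mean signal, from 500.003 to 500.004. Median signals were 96.1 to 118.4 on the 7 arrays of scan day 2 and 46.0 to 76.3 on the other 36. Scan year 2 holds the 7 arrays of no IL-2 4 h and no IL-2 8 h, and scan year 1 the remaining 36. The ratio of 3' to 5' actin signal, which tracks RNA quality, ran from 1.182 to 1.526 in scan year 2 and from 1.065 to 1.364 in scan year 1. The same ratio for GAPDH was 1.407 on IL-2 16 h replicate 1 and 0.777 to 0.968 on all other arrays. The T cell label held: Cd3d, Cd3e, Cd3g and Thy1, components of the T cell receptor complex and a T cell surface protein, were above the array median on all 43 arrays. Of 10 T cell markers on the array, 9 were above the median on more than 50% of arrays, and Cd2 was above it on 0. All 6 cytotoxic markers passed that mark, as did 1 of 5 B cell, 6 of 9 macrophage and dendritic, 0 of 2 NK, 2 of 4 mast cell, 1 of 5 fibroblast and 0 of 1 erythroid markers. In these bulk cultures, fewer cells of a kind and less RNA per cell cannot be told apart.

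After IL-2, Osm was first called as higher at 0.5 h, Tnf, Lta, Il23a and Lif at 2 h, Ifng at 4 h and Tgfb1, with a small difference, at 8 h. Il16 was first called as lower at 2 h and Ltb at 4 h, and Csf2 passed no test. The first call is not a tested order of change: every array of Tnf, Lta and Il23a already lay above the starved arrays at 0.5 h, and differences in timing between genes were not tested. Each IL-2 time was compared with starved 0 h, so the 10 comparisons share the same 5 starved arrays, and the effects of IL-2 and of culture time cannot be told apart there. Differences are on the scale log2(signal + 16) with limma's standard error, and a gene was called at an adjusted p under 0.05 over 32234 probe sets. Only Osm was called at 0.5 h and at 1 h, where 0.133% and 0.518% of all probe sets were called. At 2 h, 5 genes were higher and 1 lower, against 2.81% of all probe sets. At 4 h and at 6 h the counts were 6 higher and 2 lower, against 15.1% and 16.8%. At 8, 10 and 12 h, 7 genes were higher and 2 lower, against 19.1%, 20.0% and 19.3%. At 16 h, 6 were higher and 1 lower, against 15.4%, and at 24 h, 2 were higher and 1 lower, against 8.75%. The share of the 10 genes called was thus above the share of all probe sets at every time. Since the genes were chosen with earlier results of these data known, this describes them and is no test of the list. Each gene was also represented by its probe set of highest mean signal, while the background holds all tested probe sets. The 0.5 h, 8 h and 24 h medians of the log2 differences of the 10 genes were 0.95, 2.06 and 0.61, and those of all probe sets were 0.06, -0.14 and -0.17. These early and late counts depended on single arrays, some of them of other groups, which enter through the pooled spread. Without IL-2 24 h replicate 1, 2 genes were called at 0.5 h, with Tnf added, and 4 at 1 h, with Tnf, Lta and Il23a added. Ifng was then called at 2 h. Without no IL-2 4 h replicate 2, 4 genes were called at 1 h, and the 24 h count was 6. With IL-2 24 h replicate 3 left out, the 0.5 h, 1 h and 24 h counts were 2, 3 and 6. The 1 h count was 2 without IL-2 24 h replicate 2, no IL-2 4 h replicate 3 or starved replicate 2. Without IL-2 16 h replicate 1, whose GAPDH ratio stands apart, 4 genes were called at 16 h. Other fits also moved the first calls. With scan day as a random block, Tnf (2.36, adjusted p = 0.024) and Lif (1.73, adjusted p = 0.0305) were called at 1 h, Ifng at 2 h (1.97, adjusted p = 0.0406) and Tgfb1 at 4 h (0.47, adjusted p = 0.0273). With only the arrays compared in the fit, Tnf was called at 0.5 h (2.32, adjusted p = 0.00278), Lta (1.97, adjusted p = 0.000363) and Il16 (-1.23, adjusted p = 0.0483) at 1 h, and Ifng at 2 h (1.97, adjusted p = 0.0134). Quantile normalisation called Il23a at 1 h (2.45, adjusted p = 0.0399) and Ifng at 2 h (2.08, adjusted p = 0.0493). Leaving out scan day 2 also called Il23a at 1 h (2.96, adjusted p = 0.0194). An F test over the whole time course called 9 of the 10 genes, all but Csf2, and 26.7% of all probe sets.

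**Figure D1:**
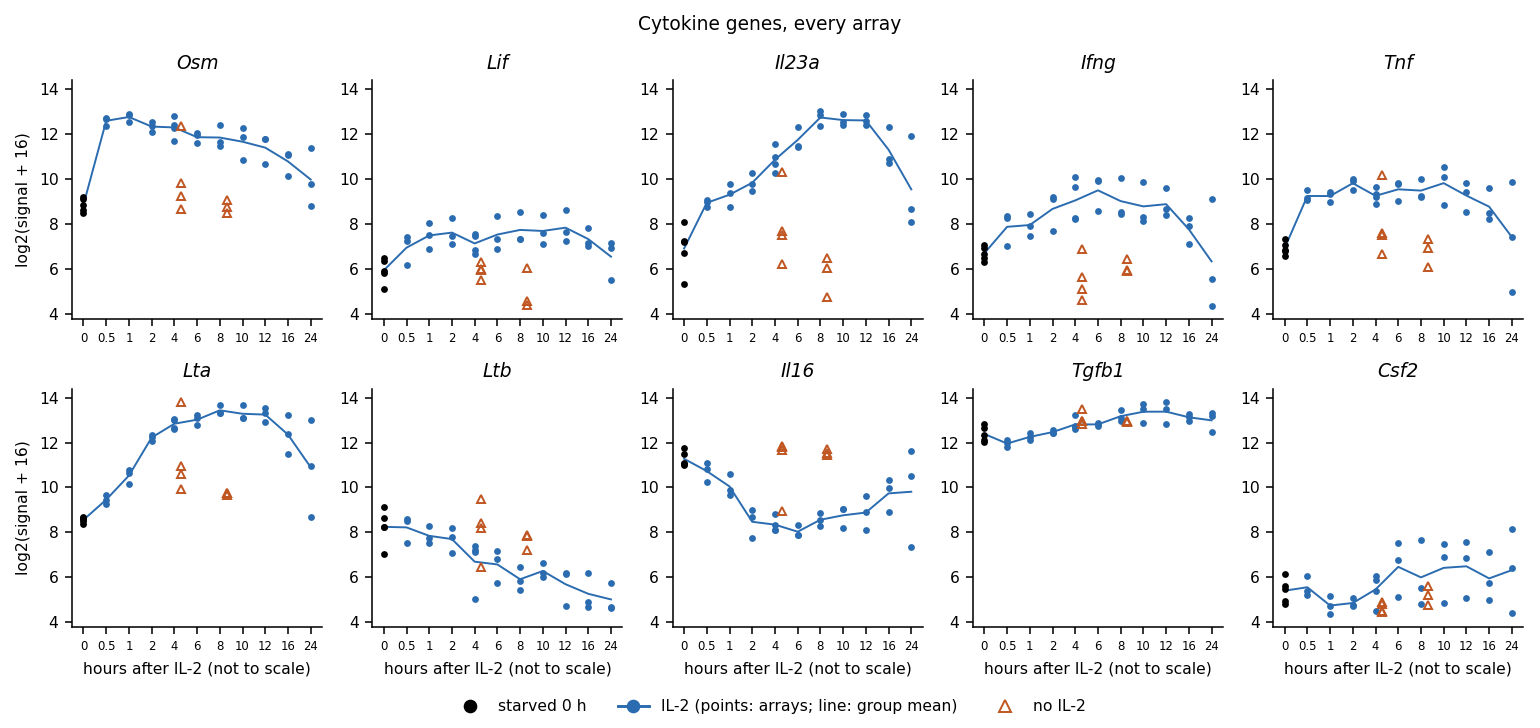
Signal of the 10 cytokine genes on every array, as log2(signal + 16), against hours after IL-2 (evenly spaced, not to scale). Black points are the starved 0 h arrays, blue points the IL-2 arrays with a line through the group means, and open triangles the arrays kept without IL-2 for 4 or 8 h. Osm is high at 0.5 h, Il23a and Lta climb until 8 h, Il16 is lowest at 6 h, and the 24 h arrays are spread widely.

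**Figure D2:**
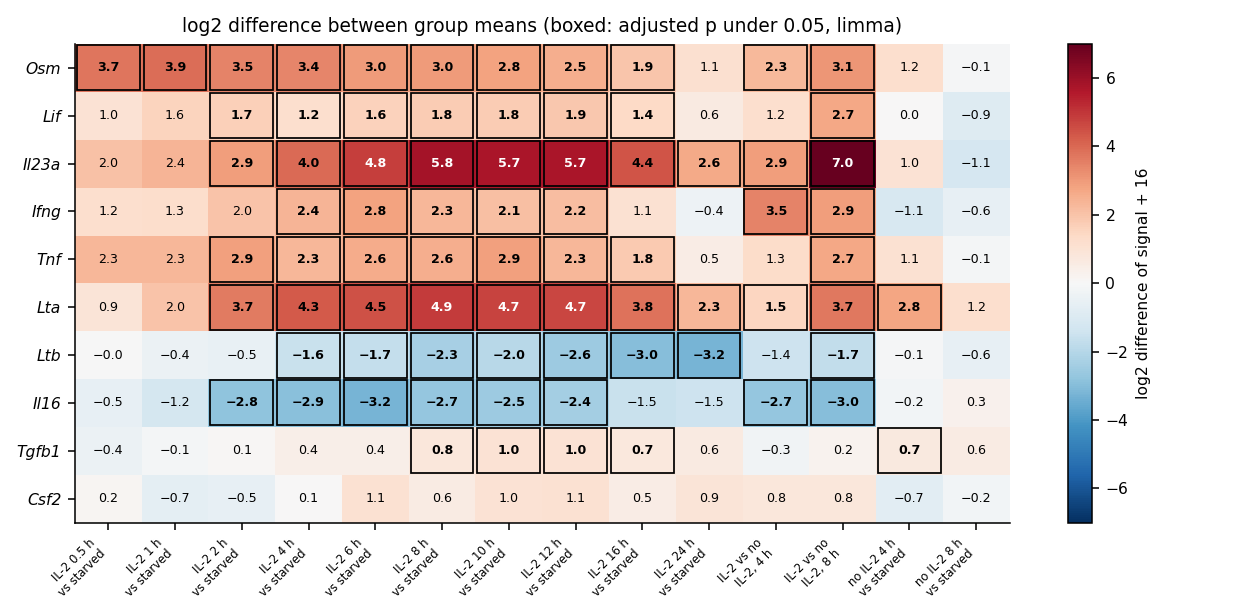
Log2 differences of the 10 genes (rows) in 14 comparisons (columns), coloured from blue (lower) to red (higher). Boxes mark adjusted p under 0.05 in limma. The largest value is that of Il23a in IL-2 8 h against no IL-2 8 h, 6.98.

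Osm encodes oncostatin M, a cytokine of the interleukin 6 family that signals through the gp130 receptor chain. Its signals were 581, 543, 383, 442 and 346 on the starved arrays and 6615, 5227 and 6815 at 0.5 h. Every 0.5 h array lay above every starved array (log2 difference 3.73 ± 0.48, adjusted p = 7.5e-06). Within scan day 2 the difference was 3.40 and within scan day 3 4.17. The signals were 5900.1, 7597 and 7488 at 1 h, where the difference was the largest of the course (log2 difference 3.90 ± 0.48, adjusted p = 3.19e-06). The group mean of the log2 values was lower at each later time than at the one before, while all arrays from 0.5 to 16 h stayed above all starved arrays. Signals were 2839.5, 5496 and 3192 at 8 h (log2 difference 2.99 ± 0.48, adjusted p = 1.96e-05) and 2174, 2234 and 1106 at 16 h (log2 difference 1.92 ± 0.48, adjusted p = 0.00427). Osm was thus at 95.6% of its largest log2 difference at 0.5 h, 76.6% at 8 h and 49.3% at 16 h. At 24 h the signals were 2668, 860.4 and 425, the group overlapped starved 0 h, and the difference was not called (log2 difference 1.12 ± 0.48, adjusted p = 0.148). No array, left out alone, ended a call of Osm from 0.5 to 16 h.

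Lif, leukaemia inhibitory factor, is of the same cytokine family, and in the RefSeq gene table Osm and Lif are neighbours on chromosome 11. Lif signals were low on the starved arrays, 73.6, 19.0, 40.9, 44.7 and 64.9, where 1 of 5 lay above its array median. They were 124, 290.1 and 162 at 2 h, and all 3 arrays lay above the starved arrays (log2 difference 1.68 ± 0.45, adjusted p = 0.0276). The largest difference came at 12 h, with signals of 138, 374 and 185 (log2 difference 1.90 ± 0.45, adjusted p = 0.00184). Lif was called from 2 to 16 h, on smaller differences than Osm. Where Osm stood highest at 1 h, Lif had log2 differences between 1 and 12 h from 1.20 to 1.90. The 12 h call was kept in every fit that left out 1 array, but the others each depended on 1 or more arrays. Averaging its 2 probe sets ended the calls at 2 h (0.91, adjusted p = 0.275), 6 h (0.91, adjusted p = 0.113) and 16 h (0.79, adjusted p = 0.179) and that of the F test (adjusted p = 0.0903 in limma). The 2 h call was lost with median centring (adjusted p = 0.0509 in limma) and with only the arrays compared (0.0583). The 4 h call was lost with a pseudocount of 1 (0.0519) or 64 (0.0588) and with no filter (0.0597). Without scan day 2 the 2 h, 4 h, 6 h and 16 h calls were all lost (adjusted p from 0.0524 to 0.24 in limma). Without starved replicate 2 the 2 h, 4 h and 16 h differences were 1.48 (adjusted p = 0.0735), 1.0 (adjusted p = 0.123) and 1.19 (adjusted p = 0.0825). Without replicate 2 of the same time the 6 h, 8 h and 10 h differences were 1.18 (adjusted p = 0.12), 1.41 (adjusted p = 0.0511) and 1.40 (adjusted p = 0.0556). The 2 h call was also lost without starved replicate 3 or 4 or 2 h replicate 2 or 3, the 4 h call without starved replicate 3 or 4 or 4 h replicate 1, 3 or 4, and the 16 h call without 16 h replicate 1 or 2. The second probe set of Lif lay above the array median on 6 of 43 arrays and was called once among the 10 times, at 8 h (log2 difference 1.43 ± 0.52, adjusted p = 0.0471).

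Il23a encodes the p19 chain, which pairs with the p40 chain of Il12b to form interleukin 23. It had the largest rise among the 10 genes. Signals were 87.9, 254, 129, 24.6 and 138 on the starved arrays, 496, 424 and 517 at 0.5 h and 416, 862 and 655 at 1 h. All arrays at both times lay above all starved arrays, and neither difference was called (log2 difference 2.03 ± 0.62, adjusted p = 0.491, and log2 difference 2.40 ± 0.62, adjusted p = 0.0723). The 2 h signals were 685, 879 and 1214 (log2 difference 2.93 ± 0.62, adjusted p = 0.0042). The group mean was higher at each time until 8 h, with signals of 1618, 1214, 1998 and 2968 at 4 h, 2741, 2844 and 5124 at 6 h and 8349, 5252 and 7324 at 8 h. The 8 h difference was the largest (log2 difference 5.83 ± 0.62, adjusted p = 5.81e-08). The level stayed there to 12 h, 5480.3, 6077 and 7317, and all later arrays remained above the starved ones. Because the starved mean of 127 ± 84.2 SD (n = 5) lies near the array medians, the size depends on the pseudocount chosen: it was 6.08 with 1 and 5.30 with 64 at 8 h. At 2 h the call was lost without IL-2 2 h replicate 3 (2.72, adjusted p = 0.0513).

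Ifng encodes interferon gamma, the cytokine that activates macrophages and raises antigen presentation. Its promoter, the 250 bases before and 50 after the annotated start, is shown because it holds a spaced palindrome TTCNNNGAA, the letters that STAT factors recognise, and a TATAAA box. It comes from RefSeq (GRCm38.p6, chr10:118440796-118441095, plus strand), written 5′ to 3′ with both matches in capitals, at -249 and -30 from the start.

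Ifng: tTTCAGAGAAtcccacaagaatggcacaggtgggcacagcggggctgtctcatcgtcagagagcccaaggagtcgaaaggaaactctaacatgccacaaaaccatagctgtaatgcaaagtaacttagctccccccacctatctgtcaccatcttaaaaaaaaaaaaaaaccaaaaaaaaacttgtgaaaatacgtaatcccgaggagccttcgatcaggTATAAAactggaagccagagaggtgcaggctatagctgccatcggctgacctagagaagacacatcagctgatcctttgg

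Starved signals of Ifng were 119, 107, 86.0, 74.6 and 64.2, and 2 of 5 lay above the array median. The signals were 338, 162 and 228 at 1 h and 544, 574 and 191 at 2 h, all above the starved arrays, with differences that were not called (log2 difference 1.25 ± 0.64, adjusted p = 0.575, and log2 difference 1.97 ± 0.64, adjusted p = 0.0948). They were 289, 786, 1082 and 282 at 4 h (log2 difference 2.35 ± 0.59, adjusted p = 0.00434) and 991, 963 and 371 at 6 h (log2 difference 2.80 ± 0.64, adjusted p = 0.00164). At each of these times, and at 8, 10 and 12 h, every IL-2 array lay above every starved array, and at each of them the arrays spanned a wider range on the log2 scale than those of Osm or Lta. At 8 h they were 359.8, 1059 and 333, with replicate 2 alone near the 6 h maximum (log2 difference 2.32 ± 0.64, adjusted p = 0.00785). Without replicate 2 of the same time the calls were lost at 8 h (1.80, adjusted p = 0.0908), at 10 h (1.54, adjusted p = 0.161) and at 12 h (1.83, adjusted p = 0.0917). At 16 h the signals were 295, 225 and 123 and the difference was not called (log2 difference 1.07 ± 0.64, adjusted p = 0.297).

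Lta, Tnf and Ltb encode 3 ligands of the tumour necrosis factor family. Lta forms a soluble trimer that binds the same receptors as Tnf. Ltb anchors Lta at the membrane in a complex that binds the lymphotoxin beta receptor. In the RefSeq gene table the 3 genes are immediate neighbours on chromosome 17, in the order Ltb, Tnf, Lta. After IL-2, Lta and Tnf rose and Ltb fell. Their promoters are shown to set these neighbours side by side: each covers 250 bases before to 50 after the start (RefSeq, GRCm38.p6), 5′ to 3′ along the gene's own strand, with motif matches in capitals. They lie at chr17:35205302-35205601, minus strand for Lta, chr17:35201958-35202257, minus strand for Tnf, and chr17:35194257-35194556, plus strand for Ltb.

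Lta: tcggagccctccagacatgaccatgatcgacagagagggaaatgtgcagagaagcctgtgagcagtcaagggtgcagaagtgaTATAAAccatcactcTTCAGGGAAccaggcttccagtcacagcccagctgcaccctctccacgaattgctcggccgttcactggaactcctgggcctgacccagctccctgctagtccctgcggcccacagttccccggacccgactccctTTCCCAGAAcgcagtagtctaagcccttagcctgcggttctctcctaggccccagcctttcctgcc

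Tnf: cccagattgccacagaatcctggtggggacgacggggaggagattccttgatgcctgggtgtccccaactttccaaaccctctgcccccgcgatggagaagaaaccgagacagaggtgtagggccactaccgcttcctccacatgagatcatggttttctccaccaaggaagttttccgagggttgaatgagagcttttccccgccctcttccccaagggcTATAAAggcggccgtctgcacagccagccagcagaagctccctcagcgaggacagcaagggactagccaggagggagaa

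Ltb: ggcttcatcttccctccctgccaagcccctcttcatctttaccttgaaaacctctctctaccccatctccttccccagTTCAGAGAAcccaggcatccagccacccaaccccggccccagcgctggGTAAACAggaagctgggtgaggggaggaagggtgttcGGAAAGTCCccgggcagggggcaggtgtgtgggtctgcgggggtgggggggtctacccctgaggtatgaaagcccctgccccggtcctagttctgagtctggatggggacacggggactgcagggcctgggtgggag

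In Lta the capitals mark STAT letters (TTCNNNGAA) at -152 and -16 and TATAAA at -167. In Tnf they mark TATAAA at -29. In Ltb they mark STAT letters at -172, the FoxO letters GTAAACA at -124 and, on the opposite strand, the NF-kB letters GGANTTTCC at -87. No 2 matches overlapped. Both strands of 32851 mouse promoters of the same length were searched: STAT letters were in 8.298%, TATAAA in 13.616%, GTAAACA in 3.65%, GGANTTTCC in 1.254%, the AP-1 letters TGANTCA in 7.808% and the E-box CACGTG in 7.15%. Of the 8 members with a promoter entry, 3 (Ifng, Lta and Ltb) held STAT letters. They include 2 genes that rose and 1 that fell. The only matches in the entries of Lif and Il16 were to AP-1 or NF-kB letters, and those of Tgfb1 and Csf2 held no match. A match describes letters and does not show binding.

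Lta signals were 387, 313, 343, 391 and 377 on the starved arrays, a narrow range. They were 599, 787 and 687 at 0.5 h and 1134, 1749 and 1581 at 1 h, above every starved array at both times, with neither difference called (log2 difference 0.90 ± 0.54, adjusted p = 0.883, and log2 difference 1.97 ± 0.54, adjusted p = 0.101). The largest step between neighbouring times was that from 1 to 2 h. Signals were 4324, 4839.7 and 5141 at 2 h (log2 difference 3.66 ± 0.54, adjusted p = 4.79e-05), 6333, 6284, 8315 and 8559 at 4 h and 10089, 13184 and 10113 at 8 h, where the difference was largest (log2 difference 4.87 ± 0.54, adjusted p = 1.02e-07). At 16 h the arrays, at 9429, 5238 and 2866, had come apart, though all were still above starved 0 h (log2 difference 3.79 ± 0.54, adjusted p = 4.69e-06). The first of these, replicate 1, is the array with the GAPDH ratio of 1.407, whose part in the spread was not tested. No array, left out alone, ended a call of Lta from 2 to 16 h.

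Tnf signals were 94.2, 120.2, 80.4, 147 and 98.5 on the starved arrays and 549, 523 and 728 at 0.5 h. The groups did not overlap, but the difference was not called at 0.5 h (log2 difference 2.32 ± 0.60, adjusted p = 0.183) or at 1 h (log2 difference 2.32 ± 0.60, adjusted p = 0.0711). It was called at 2 h, with signals of 727, 949 and 1014 (log2 difference 2.89 ± 0.60, adjusted p = 0.00331). From then to 12 h Tnf stayed on a plateau, with log2 differences from 2.33 to 2.89. Tnf was at 80.3% of its largest log2 difference at 0.5 h, where Lta was at 18.4%; whether the 2 courses differ was not tested. The 16 h signals were 759.6, 341 and 288 (log2 difference 1.85 ± 0.60, adjusted p = 0.0309), and the call was lost without starved replicate 1 or 3 or without 16 h replicate 1 or 2, with the lowest value 1.43 (adjusted p = 0.216) without 16 h replicate 1.

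Ltb went the other way. Starved signals were 542, 379, 283, 284 and 116, and the 0.5 h signals of 347, 376 and 172 overlapped them (log2 difference -0.03 ± 0.54, adjusted p = 0.996). By 8 h the signals were 28.0, 72.1 and 40.8, all below the starved arrays (log2 difference -2.33 ± 0.54, adjusted p = 0.00143). They were 14.3, 9.70 and 57.5 at 16 h (log2 difference -2.98 ± 0.54, adjusted p = 0.000112) and 8.70, 9.80 and 37.5 at 24 h, where the fall was largest (log2 difference -3.23 ± 0.54, adjusted p = 0.000116). Ltb was above the array median on 5 of 5 starved arrays, on 1 of 3 at 8 h and on 0 of 3 at 16 h and at 24 h, so the size of the fall is bounded by the low end of the signal range. At 24 h it was -4.17 with a pseudocount of 1 and -2.13 with 64. The 4 h and 6 h calls overlapped starved 0 h and depended on single arrays. They were lost without 4 h replicate 4 (-1.0, adjusted p = 0.205) or starved replicate 1 (-1.33, adjusted p = 0.08) or 2 (-1.46, adjusted p = 0.0566) at 4 h. At 6 h they were lost without 6 h replicate 3 (-1.26, adjusted p = 0.202), 6 h replicate 1 (-1.80, adjusted p = 0.0522) or starved replicate 1 (-1.45, adjusted p = 0.0728). The calls from 8 to 24 h were kept in all such fits.

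**Figure D3:**
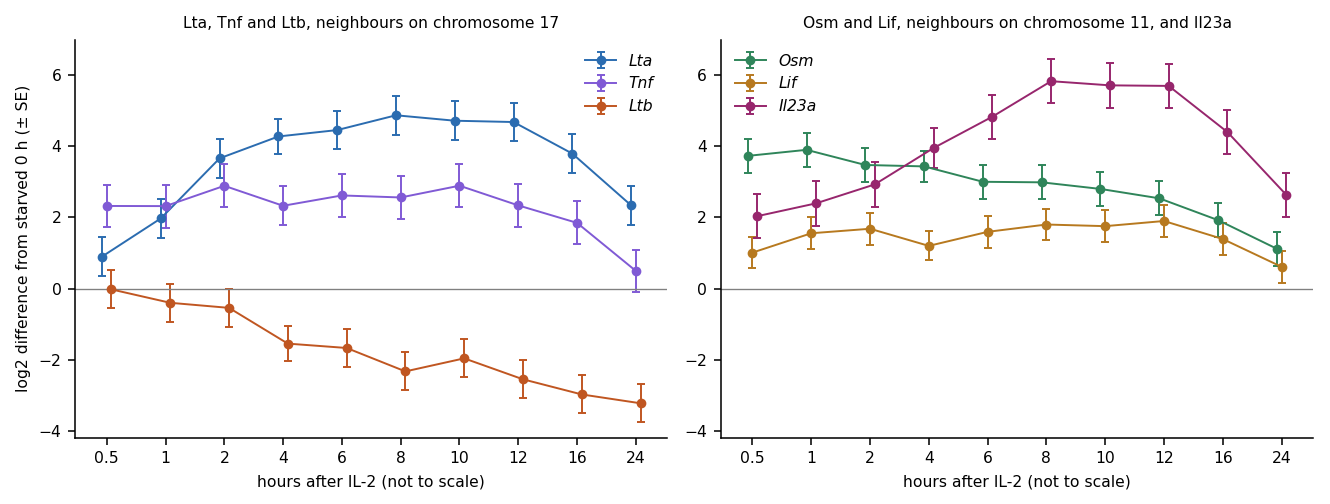
Log2 difference from starved 0 h with limma's standard error, against hours after IL-2 (evenly spaced, not to scale). On the left, Lta and Tnf lie above 0 and Ltb below it from 1 h on, ending at -3.23 at 24 h. On the right, Osm peaks at 1 h, Lif is flat between 1 and 12 h, and Il23a reaches 5.83 at 8 h.

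Il16 encodes pro-interleukin 16, a precursor whose cleaved end attracts CD4+ cells. Starved signals were 2184, 2125, 2822, 3449.5 and 2014, and the 0.5 h signals of 2184, 1819 and 1193 overlapped them (log2 difference -0.55 ± 0.56, adjusted p = 0.905). At 1 h all arrays, at 1530.4, 932 and 789.7, lay below the starved ones, and the difference was not called (log2 difference -1.23 ± 0.56, adjusted p = 0.498). Signals were 399, 488 and 199 at 2 h (log2 difference -2.80 ± 0.56, adjusted p = 0.00195) and 217, 221 and 307 at 6 h, the largest fall (log2 difference -3.25 ± 0.56, adjusted p = 6.17e-05). The signals lay higher at the later times, at 262, 770.2 and 468 at 12 h (log2 difference -2.39 ± 0.56, adjusted p = 0.00159) and 467, 1259.5 and 990.5 at 16 h. The 16 h arrays were still below all starved arrays, with a difference just outside the threshold (log2 difference -1.54 ± 0.56, adjusted p = 0.0532). It was called, at an adjusted p from 0.00924 to 0.0487 in limma, without 16 h replicate 2, 24 h replicate 1 or 2, or no IL-2 4 h replicate 2. It was also called with only the arrays compared (adjusted p = 0.00398 in limma) and with scan day as a random block (0.0246). The 75th percentile filter (0.034), a pseudocount of 64 (0.0426) and leaving out scan day 2 (0.0167) gave the call as well. The remaining settings, a pseudocount of 1 (0.0599) among them, did not call it. A second Il16 probe set, with a lower signal, fell likewise and was called from 2 to 12 h (log2 difference -2.53 ± 0.46, adjusted p = 0.000121 at 6 h). The other 2 were called at no IL-2 time. One lay above the array median on 4 of 43 arrays, and the other was lower at no IL-2 4 h than at starved 0 h (log2 difference -1.17 ± 0.34, adjusted p = 0.0279).

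Tgfb1 encodes transforming growth factor beta 1, which restrains T cell division and is secreted in a latent form. Starved signals were 7274, 4471, 4094, 5080.4 and 6298, and the 2 h signals of 5985, 5413 and 5508 lay among them (log2 difference 0.08 ± 0.21, adjusted p = 0.943). The signals were 8792, 11092 and 8003 at 8 h (log2 difference 0.79 ± 0.21, adjusted p = 0.00567), 13574, 11485 and 7568 at 10 h and 14069.7, 11524 and 7336 at 12 h (log2 difference 0.99 ± 0.21, adjusted p = 0.000583). From 8 to 16 h every IL-2 array lay above every starved array. Tgfb1 was first called at 8 h, which was also the first time without overlap for both Tgfb1 and Ltb. With scan day as a random block it was called at 4 h as well, and at 6 h (0.54, adjusted p = 0.0196) and 24 h (0.62, adjusted p = 0.0171). With the replicate block it was called at 4 h (0.48, adjusted p = 0.0421) and 24 h (0.64, adjusted p = 0.023). Its largest difference was the smallest among the called genes. The 16 h call was lost with only the arrays compared (adjusted p = 0.0538 in limma) and with its probe sets averaged (0.0551). The 8 h call was lost without 8 h replicate 2 (0.66, adjusted p = 0.0571), and the 16 h call without 16 h replicate 1 (0.73, adjusted p = 0.0523) or 2 (0.67, adjusted p = 0.0604). Its second probe set was called at no IL-2 time.

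Csf2, granulocyte-macrophage colony-stimulating factor, stayed near the low end of the signal range. Starved signals were 14.5, 33.6, 12.3, 29.2 and 55.3, and none exceeded its array median. At 12 h, where its difference was largest, they were 172, 98.7 and 17.9, with 2 of 3 above the median (log2 difference 1.08 ± 0.67, adjusted p = 0.286). The groups overlapped at every time. Its signal exceeded the array median on 10 of 43 arrays, all of them IL-2 arrays from 6 to 24 h. Csf2 passed the filter through these arrays alone, so the count adds no evidence of a change. The F test did not call it either (adjusted p = 0.348 in limma).

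At 24 h the 3 arrays came apart for most of the genes. Ifng signals were 546, 30.9 and 4.30 (log2 difference -0.36 ± 0.64, adjusted p = 0.806), Il23a signals 3802, 257 and 386 (log2 difference 2.63 ± 0.62, adjusted p = 0.00543) and Lta signals 8279, 1990.1 and 401 (log2 difference 2.34 ± 0.54, adjusted p = 0.00466). Replicate 1 read near the 12 h arrays and replicates 2 and 3 read much lower. Tnf signals were 914, 156 and 15.8 (log2 difference 0.49 ± 0.60, adjusted p = 0.694), and Il16 signals, in the opposite order, 145, 3108 and 1420.4 (log2 difference -1.47 ± 0.56, adjusted p = 0.0929). Replicate 1 was scanned on scan day 2, whose arrays have higher medians, and the other 2 on scan days 5 and 3. Against the starved arrays of the same scan day, Ifng differed by 2.19 on day 2 and -2.16 on day 3, Tnf by 2.77 and -1.72, and Lta by 4.65 and 0.15. These are single 24 h arrays against 1 and 2 starved arrays. Ltb was lower on both days (-4.0 and -1.89). Without replicate 1 the calls of Il23a (1.46, adjusted p = 0.131) and Lta (1.28, adjusted p = 0.121) were lost, which left 1 gene called at 24 h, Ltb. Both calls were also lost with only the arrays compared (adjusted p = 0.104 and 0.0874 in limma). Without replicate 3, 6 genes were called, with Osm (1.72, adjusted p = 0.0257), Tnf (1.71, adjusted p = 0.043) and Tgfb1 (0.87, adjusted p = 0.00905) added. Without replicate 2, Il16 was called (-2.37, adjusted p = 0.00754). At 6 h the within-day values were close for Lta (4.85 on day 2 and 4.37 on day 3) and Il16 (-3.17 and -3.13). At 8 h, 2 of the 3 arrays share scan day 3 with 2 starved arrays, and within it Il23a differed by 5.71, Lta by 4.75, Osm by 2.99, Tnf by 2.51, Ifng by 2.0, Lif by 1.27, Tgfb1 by 0.72, Ltb by -1.99 and Il16 by -2.81.

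Cells kept without IL-2 for the same hours give the comparison at equal time in culture. At 8 h, 6 genes were higher with IL-2 and 2 lower, against 19.7% of all probe sets called. At 4 h, 4 were higher and 1 lower, against 14.5%. Scan year and IL-2 cannot be told apart here, since the no IL-2 4 h and 8 h arrays are those of scan year 2, and the actin ratios given above differ between the years. The summed signal of the 9 macrophage and dendritic markers was 9768 to 13945 on the arrays without IL-2, 6877 to 11105 on starved 0 h arrays and 3638 to 8777 on IL-2 arrays. That sum is weighted to Itgax, whose median signal over the arrays was 5122, with Cd68 next at 960. Itgax, a marker shared with activated T cells, and Cd68 were above the array median on all 43 arrays. Cd14 was above it on 42, Csf1r on 40, Adgre1 on 32, Fcgr1 on 22, Mrc1 on 13, Lyz2 on 6 and Itgam on 1. The 4 mast cell markers summed to 710 to 1627, 3081 to 5088 and 869 to 4956 in the same order of groups. Kit, with a median signal of 2411, weighed most in these sums, ahead of Cpa3 at 421. The 10 T cell markers summed to 93985 to 135040, 68045 to 102709 and 63005 to 107131. The part of these markers in the results was not tested.

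At 8 h Il23a signals were 8349, 5252 and 7324 with IL-2 and 11.1, 49.9 and 73.9 without (log2 difference 6.98 ± 0.70, adjusted p = 1.1e-08). Lta signals without IL-2 were 856, 838 and 794, all below the IL-2 arrays given above (log2 difference 3.71 ± 0.61, adjusted p = 2.44e-05). The groups likewise did not overlap for Osm, 525, 347 and 423 without IL-2 (log2 difference 3.06 ± 0.54, adjusted p = 6.15e-05), or for Ifng, 72.1, 44.8 and 45.3 without IL-2 (log2 difference 2.92 ± 0.72, adjusted p = 0.00273). Tnf and Lif were higher too (log2 difference 2.70 ± 0.67, adjusted p = 0.00312, and log2 difference 2.73 ± 0.50, adjusted p = 0.000109). Il16 stayed high without IL-2, at 3355, 2916 and 2777, against 360.5, 448 and 294 with it (log2 difference -3.0 ± 0.62, adjusted p = 0.000453). Ltb signals without IL-2 were 132, 216 and 224, above all IL-2 arrays (log2 difference -1.74 ± 0.60, adjusted p = 0.0338). The Ltb call was lost without IL-2 8 h replicate 1 (-1.51, adjusted p = 0.133) or 3 (-1.70, adjusted p = 0.087), or no IL-2 8 h replicate 2 (-1.64, adjusted p = 0.1) or 3 (-1.62, adjusted p = 0.106), with scan day as a random block (-1.99, adjusted p = 0.0692) and with a pseudocount of 1 (-2.06, adjusted p = 0.051). Tgfb1, called at 8 h against starved 0 h, was at 7967, 7589.7 and 7922 without IL-2 and did not pass the test at equal time (log2 difference 0.23 ± 0.23, adjusted p = 0.558). Its second probe set did (log2 difference 1.66 ± 0.45, adjusted p = 0.00658), so the 2 probe sets of Tgfb1 disagree in this comparison.

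At 4 h the library with the label no IL-2 4 h replicate 2 stood apart from the other 3 of its group. Its signal of Lta was the second of 1553, 14310.3, 968 and 1940.3, above all IL-2 4 h arrays. For Osm the 4 arrays read 597, 5289, 396 and 891, for Tnf 166, 1165, 84.5 and 181 and for Il16 3239, 472, 3521 and 3667. In these last 3 genes replicate 2 read near the IL-2 arrays and the others near starved 0 h. For Lta the others lay between the starved and the IL-2 arrays. Il23a signals were 168, 1274, 58.7 and 188, with replicate 2 inside the range of the IL-2 4 h arrays. An array whose label does not match its culture and a culture in another state cannot be told apart here, so the values of the called genes are also given without replicate 2. With all 4 arrays, Ifng (log2 difference 3.48 ± 0.62, adjusted p = 0.000185), Il23a (log2 difference 2.92 ± 0.60, adjusted p = 0.000895), Osm (log2 difference 2.26 ± 0.47, adjusted p = 0.000852) and Lta (log2 difference 1.51 ± 0.53, adjusted p = 0.0468) were higher with IL-2. Il16 was lower (log2 difference -2.71 ± 0.54, adjusted p = 0.000578). For Ifng, replicate 2, the second of 34.4, 103, 19.0 and 8.70, lay above the other 3 but below all IL-2 4 h arrays. Lif on replicate 2 read 64.7, also below all IL-2 4 h arrays, and Ltb read 72.6, inside their range. Without replicate 2, 8 genes were called. Tnf (2.0, adjusted p = 0.00891), Lif (1.32, adjusted p = 0.0438) and Ltb (-2.01, adjusted p = 0.00435) were then added, and the difference of Lta was 2.34 (adjusted p = 0.000226). Il23a then differed by 3.72 (adjusted p = 7.21e-06), Osm by 3.04 (adjusted p = 3.24e-07), Ifng by 3.92 (adjusted p = 2.92e-05) and Il16 by -3.42 (adjusted p = 4.24e-06). With all arrays Tnf, Lif and Ltb were not called (adjusted p = 0.15, 0.0569 and 0.0533 in limma). The Lta call with all arrays sat on the threshold and was lost in 29 of the 43 fits that left out 1 array. It was also lost with scan day as a random block (1.89, adjusted p = 0.0897), with only the arrays compared (1.51, adjusted p = 0.109), with median centring (1.49, adjusted p = 0.0679) and with no filter (1.51, adjusted p = 0.0588). Lif and Ltb, near the threshold too, were called in 4 and 6 of the 43 fits, and both with the replicate block (1.19, adjusted p = 0.0359, and -1.45, adjusted p = 0.0419).

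**Figure D4:**
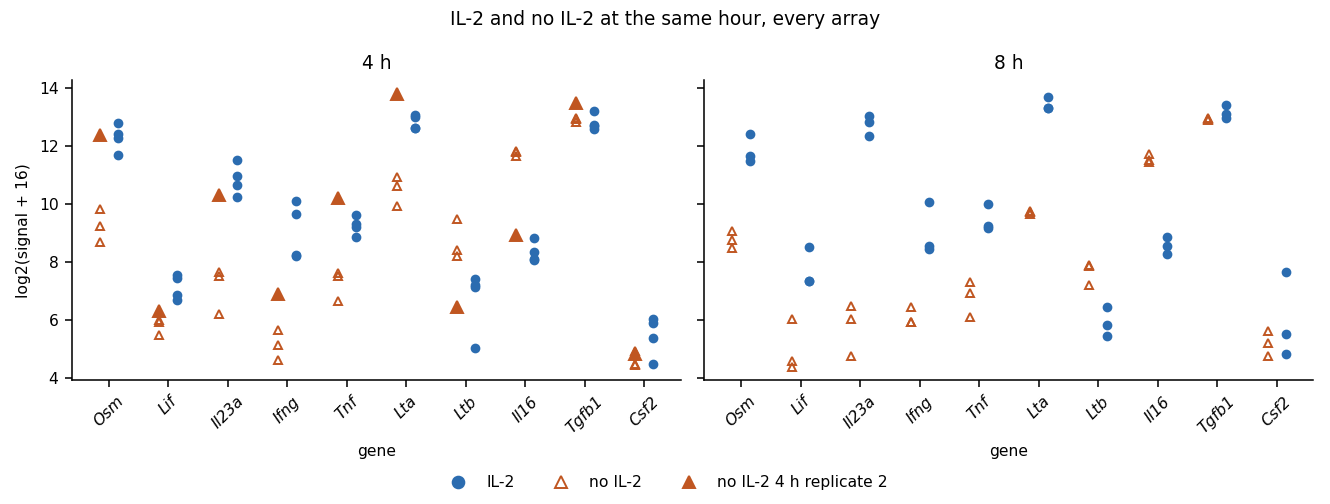
Signal of the 10 genes as log2(signal + 16) on every array at 4 h (left) and 8 h (right), with IL-2 (blue circles) and without (triangles). The filled triangles are no IL-2 4 h replicate 2, which lies with the IL-2 arrays for Osm, Tnf, Lta, Il23a, Il16 and Ltb but below them for Ifng and Lif. At 8 h the groups of Csf2 overlap. Those of Tgfb1 lie apart, but it was not called (adjusted p = 0.558 in limma). How many of all probe sets lie apart in this way was not counted, so groups that lie apart are no result about the genes.

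Few of the genes passed the test when further hours without IL-2 were compared with starved 0 h. The arrays without IL-2 are of scan year 2 and the starved 0 h arrays of scan year 1, so further starvation and scan year cannot be told apart. No IL-2 4 h against starved 0 h called 2 genes, both higher, against 8.00% of all probe sets (2.58% higher and 5.42% lower). With scan day as a random block 1 gene was called, Lta (2.50, adjusted p = 0.0384), and Tgfb1 was not (0.55, adjusted p = 0.206). Lta signals were those given above (log2 difference 2.77 ± 0.50, adjusted p = 0.000485), and all 4 arrays exceeded all starved arrays. Tgfb1 signals were 7974, 11593, 7274 and 7899, also all above starved 0 h (log2 difference 0.68 ± 0.19, adjusted p = 0.023). Without replicate 2 the Lta difference was 1.94 (adjusted p = 0.00726), and Tgfb1 was not called (0.53, adjusted p = 0.129). The Tgfb1 call was also lost without starved replicate 2 (0.62, adjusted p = 0.0624) or 3 (0.59, adjusted p = 0.0753), and Osm was gained without no IL-2 4 h replicate 3 (1.62, adjusted p = 0.0237). No IL-2 8 h against starved 0 h called 0 genes in limma, and 5.45% of all probe sets were called. In it Lta (log2 difference 1.16 ± 0.54, adjusted p = 0.231) and Tgfb1 (log2 difference 0.56 ± 0.21, adjusted p = 0.119) again lay above starved 0 h on every array.

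The difference between the IL-2 effects at 8 h and at 4 h was tested itself. It called 0 of the 10 genes in limma, and 0.0496% of all probe sets. The largest value was that of Il23a (difference of log2 differences 4.05 ± 0.92, adjusted p = 0.0731). Without no IL-2 4 h replicate 2, the array that stood apart, it was 3.26 (adjusted p = 0.238 in limma). It was called without IL-2 24 h replicate 1 (adjusted p = 0.0238 in limma), without no IL-2 4 h replicate 3 (4.63, adjusted p = 0.045) and with scan day as a random block (4.48, adjusted p = 0.0148).

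The receptors, partners and regulators of these cytokines were counted as lists. Among 18 receptor genes of the 10 cytokines, 12 passed the filter, and at 8 h after IL-2 0 rose and 3 fell. Of all probe sets, 7.09% were called higher and 12.0% lower, 19.1% in all, so the number of receptors called lay near that background and is no result about the list. The list's median was -0.19, where that of all probe sets was -0.14. The called genes are given as single values. Ifngr1, the ligand-binding chain of the interferon gamma receptor, fell (log2 difference -1.99 ± 0.38, adjusted p = 0.000213), as did the transforming growth factor beta receptors Tgfbr1 (log2 difference -1.37 ± 0.35, adjusted p = 0.0042) and Tgfbr2 (log2 difference -0.88 ± 0.18, adjusted p = 0.000575). All 3 were also lower at 8 h than without IL-2 (-2.10, -1.58 and -0.84 on the log2 scale). Of 9 partner and processing genes, 5 passed the filter and 1 rose at 8 h, again near the 19.1% of all probe sets. That was Furin, a protease that cleaves the Tgfb1 precursor (log2 difference 2.02 ± 0.41, adjusted p = 0.000356). Il12b, the partner of Il23a in interleukin 23, was tested and did not pass (log2 difference -0.51 ± 0.48, adjusted p = 0.543), and Il12a and Ebi3 did not pass either. Of 23 other T cell cytokine genes, 11 passed the filter, and 2 rose and 2 fell at 8 h, against 7.09% and 12.0% of all probe sets. Hbegf, a growth factor of the epidermal growth factor family, had the largest rise (log2 difference 5.92 ± 0.70, adjusted p = 2.2e-07), and Il24 rose (log2 difference 3.96 ± 1.05, adjusted p = 0.00559). The death ligands Fasl (log2 difference -1.25 ± 0.29, adjusted p = 0.00165) and Tnfsf10 (log2 difference -1.16 ± 0.42, adjusted p = 0.0499) fell. Il2, Il3, Il5, Il6, Il13, Il17f, Il21 and Il22 were among the 12 that did not pass the filter.

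Of 29 transcription factors and RNA decay factors known to act on cytokine genes, 25 passed the filter. At 8 h, 3 rose and 11 fell, against 7.09% and 12.0% of all probe sets, with a list median of -0.54 where that of all probe sets was -0.14. Irf4 (log2 difference 2.20 ± 0.60, adjusted p = 0.00712), Irf8 (log2 difference 1.37 ± 0.32, adjusted p = 0.00156) and Eomes (log2 difference 1.09 ± 0.22, adjusted p = 0.000289) rose. Bcl6, a repressor, had the largest fall (log2 difference -1.94 ± 0.41, adjusted p = 0.000614), and Nfatc1 (log2 difference -1.62 ± 0.31, adjusted p = 0.000207), Tbx21 (log2 difference -1.58 ± 0.32, adjusted p = 0.000429) and Stat5a (log2 difference -1.58 ± 0.20, adjusted p = 7.93e-07) fell as well. Tbx21 and Eomes are both T-box factors known to act on Ifng, and they moved in opposite directions here. Against no IL-2 at 8 h, Tbx21 was also lower (log2 difference -2.25 ± 0.36, adjusted p = 2.02e-05) and Eomes also higher (log2 difference 1.36 ± 0.24, adjusted p = 7.33e-05).

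Known targets of interferon gamma were counted in the same way. Of 18 target genes of interferon gamma, 16 passed the filter, and at 8 h 1 rose and 7 fell, against 7.09% and 12.0% of all probe sets, with a list median of -0.42 where that of all probe sets was -0.14. The gene that rose was Socs1, an inhibitor of cytokine signalling that is also a known target of IL-2 signalling (log2 difference 3.97 ± 0.54, adjusted p = 1.62e-06). Guanylate-binding proteins fell, with Gbp2 (log2 difference -3.17 ± 0.43, adjusted p = 1.97e-06), Gbp3 (log2 difference -2.52 ± 0.37, adjusted p = 5.75e-06) and Gbp6 (log2 difference -2.19 ± 0.57, adjusted p = 0.0046) falling most. Psmb9, a subunit of the immunoproteasome (log2 difference -2.18 ± 0.42, adjusted p = 0.000244), and Tap1, a peptide transporter (log2 difference -1.67 ± 0.34, adjusted p = 0.000348), fell too. Irf1, which is on the regulator list as well, fell (log2 difference -1.33 ± 0.28, adjusted p = 0.000629). At equal time in culture, 1 target was higher with IL-2 at 8 h and 7 were lower, against 19.7% of all probe sets in either direction, among them Gbp2 (log2 difference -3.66 ± 0.49, adjusted p = 1.23e-06). At 2 h, 2 targets were higher than at starved 0 h and 1 was lower, against 1.64% and 1.17%. The tests of these lists' single genes are those of the same fit, and no test was made of a list as a whole.

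**Figure D5:**
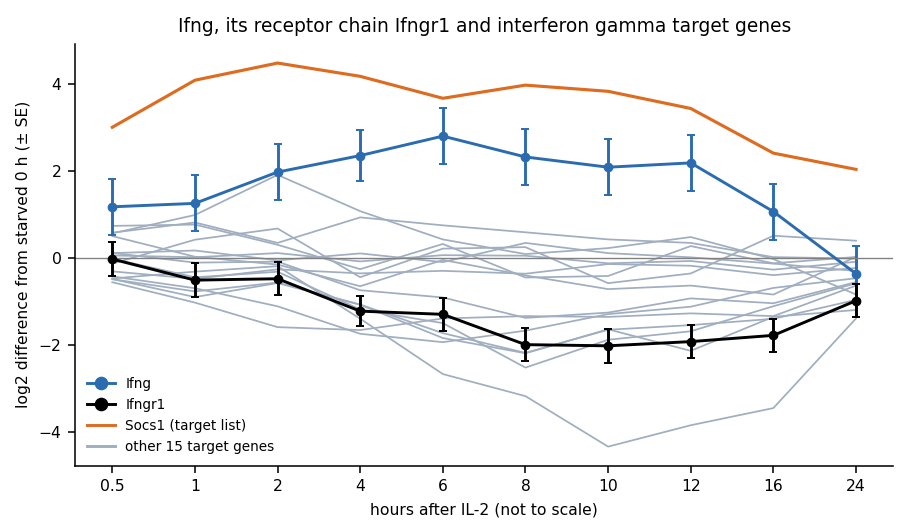
Log2 difference from starved 0 h against hours after IL-2 (evenly spaced, not to scale) for Ifng and its receptor chain Ifngr1, with limma's standard error, and for 16 target genes of interferon gamma. Ifng lies above 0 until 16 h and Ifngr1 below it from 1 h. Socs1 lies highest, at 3.97 at 8 h, and most other targets lie at or below 0 from 4 h on.

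Across the means of the 13 groups, the 10 genes were correlated in pairs, given here as a description over groups that share a cell line and an array scaling. These means include no IL-2 4 h replicate 2 and the widely spread 24 h arrays. The correlations were not computed without them. Tnf correlated most with Osm (Pearson r = 0.925) and Lif (0.913), and Il23a with Lif (0.902) and Lta (0.89). Il16 ran opposite to Ifng (-0.882) and Lta (-0.875). Ltb and Tnf, neighbours on chromosome 17, had r = -0.186, and Lta and Tnf 0.714. Over the whole array, among 4801 genes called by the F test, the pattern most like Osm was that of Dusp4, a MAP kinase phosphatase (r = 0.971), with Csrnp1 (0.946) and Socs3 (0.933) next. For Il23a they were Pim3 (0.981), Tmem199 (0.973) and Eif4e (0.969), and for Lta Ptpn14 (0.984), Gmppb (0.984) and Nop58 (0.983). For Tnf they were Id3 (0.974), Hbegf (0.947) and Fosl1 (0.947), and for Lif Plk3 (0.957), Hbegf (0.957) and Lin7c (0.936). For Ifng they were Col23a1 (0.943), Irf4 (0.938) and Nr4a3 (0.936). Ltb was most like Phf1 (0.973), Il16 like Osbpl5 (0.983), Tgfb1 like Ppp1r14b (0.985) and Csf2 like Rmi2 (0.943).

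The authors' deposited table of changing probe sets lists 10 of the 15 probe sets. Ltb and Csf2 have no probe set in it, whereas Ltb was called here by the F test (adjusted p = 7.49e-06 in limma). The reverse held for the second probe set of Tgfb1. It is listed by the authors with an adjusted p of 0.00596 and was not called by the F test here (adjusted p = 0.273 in limma). In the authors' deposited table Tnf, Lta and Il23a share cluster 5, Osm is in cluster 6, Lif in cluster 2 and Ifng in cluster 4. The 2 Il16 probe sets are in clusters 3 and 7 and the 2 of Tgfb1 in clusters 4 and 7 of the authors' deposited table. The smallest adjusted p there is that of Lta, 7.62e-07, and the largest that of Lif, 0.0104.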

How the data were processed

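The deposited values are signals of 43 arrays, each with 45101 probe sets, of which 64 are controls. The unit is signal intensity on a linear scale, which the authors computed in GCOS 1.3, per the submitters' processing notes. The authors' deposited table of changed probe sets gives adjusted p-values, which were set beside the results and entered no test. Detection calls were not used, and the number of arrays limits the precision.

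Signals were changed to log2(signal + 16). The test took in a probe set whose signal exceeded the array median on 3 or more arrays (32234 probe sets, 14548 genes). Group means were fitted together over the 43 arrays in limma 3.58.1 (R 4.3.3; eBayes with a variance trend, 30 residual degrees of freedom, median residual SD 0.553 log2). Tests were two-sided, with Benjamini-Hochberg adjustment over all probe sets tested in each of 16 comparisons and a threshold of 0.05. Such p-values measure the spread between these arrays. The procedure was tested on simulated data with independent normal noise and 1 spread per probe set. Such data hold no shared scan days and no group of wider spread, so the simulation does not cover these.

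Groups came from the sample titles, and scan days from the experiment files. Symbols came from the platform annotation: 34958 probe sets carry 1 gene name, 932 several and 9211 none. All 10 genes were named, and in each list up to 4 called genes with the largest change in each comparison. The exceptions Il12b, Irf8, Eomes, Stat5a, Psmb9, Tap1 and Irf1 were chosen after their values were seen. The 10 genes, the lists, the motifs and the alternatives were chosen with earlier results of these data known. Promoters were in the RefSeq table (GRCm38.p6) for 8 of 10 genes. Gene order came from the RefSeq gene table, with no coordinates taken from it. Alternatives were other pseudocounts, scalings, filters and fits, a replicate block, scan day as a random block, all probe sets of a gene averaged, and leaving out each array. Leaving out the 7 arrays of scan day 2 was added after seeing the data.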

Additional observations from a re-analysis of the deposited data

Results flagged for a closer look

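In the groups of 4 or 5 arrays, 30 sets of values were examined for a single array far from the others by Dixon's ratio, which chance passes in about 1 of 20 groups. It found 2. Il16 on no IL-2 4 h replicate 2 was 8.93 on the log2(signal + 16) scale, a signal of 472 where the other 3 arrays of the group lay between 3239 and 3667. Ltb on IL-2 4 h replicate 4 was 5.04, a signal of 17.0 where the other 3 lay between 125 and 154.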

How the results depend on the processing

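Over 15 pairwise values and the F test of each gene, no called value changed sign under any alternative. Of 1712 single-gene values under alternatives other than leaving out 1 array, 34 lost a call and 38 gained one. Of 6880 values with 1 array left out, 72 lost a call and 41 gained one. The number of genes called, summed over the 10 IL-2 times, was 61 and ran from 58 to 68 with 1 array left out. The matched comparison called 5 genes at 4 h (4 to 8) and 8 at 8 h (7 to 8). No IL-2 4 h against starved 0 h called 2 (1 to 3), no IL-2 8 h 0 (0 to 0), the difference of IL-2 effects 0 (0 to 1) and the F test 9 (9 to 9). The 2 genes of no IL-2 4 h against starved 0 h became 1 under quantile normalisation, with only the arrays compared, with scan day as a random block, with all probe sets of a gene averaged and without scan day 2. The 0 of no IL-2 8 h became 1 (Lta) with only the arrays compared. The 0 of the difference of effects became 1 (Il23a) with the 75th percentile filter, scan day as a random block or without scan day 2. The causes were not tested.

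Arrays with the same replicate number deviated together only weakly: 77 of 237 pairs had a correlation over 0.1 (mean r 0.05), against 94 of 614 pairs of different numbers (mean r -0.019). Pairs of the same number thus passed 0.1 more often, and whether the numbers pair the cultures was not tested. The main fit took no pairing, and the counts with a replicate block are given below. Arrays of one scan day had 93 of 199 pairs over 0.1 (mean r 0.075), against 78 of 652 pairs of different days (mean r -0.023), with a consensus correlation of 0.348. With the replicate block the counts were 63, 7, 8, 2, 0, 0 and 9 in the order above, and with scan day as a random block 69, 4, 7, 1, 0, 1 and 9.

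The share of called probe sets that were higher at 8 h was 37.1% as reported, 53.9% with median centring and 47.8% with quantile normalisation. At 4 h that share was 43.2%, 82.6% and 53.8% in the same order of settings. The median difference of all probe sets ran from -0.23 to 0.06 over the comparisons, and centring it changed no direction of a called gene. Averaging all probe sets of a gene tests fewer features and lowered most counts over the array. Otherwise, over all probe sets, the 24 h count of 2822 was 444 with only the arrays compared, 1448 with median centring and 1591 without scan day 2. No IL-2 4 h against starved 0 h called 2579, and 1287 with only the arrays compared or 469 with the random block of scan day. No IL-2 8 h called 1757, and 823 with median centring or 390 with that block. The matched 4 h comparison called 4664, and 2979 and 2032 in the same order. The matched 8 h comparison called 6356, and 9538 with only the arrays compared. At 0.5 h the count was 43, and 27 with only the arrays compared. At 1 h it was 167, and 107 with median centring, 288 with the replicate block or 293 with the scan-day block. At 2 h it was 906, and 536 with median centring. The difference of effects called 16, and 0 to 82 under the alternatives. Signals of Csf2, of Lif, Ifng and Il23a without IL-2, and of Ltb late after IL-2 lie near or below the array medians, so the sizes of their differences are not exact.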
